A study of Mus musculus with 16 samples.

Results

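Expression of 7 genes that mark the maturity or loss of identity of pancreatic beta (β) cells was examined in mouse pancreas. The genes were taken by symbol from the deposited tables, and all 7 were among the 24411 rows of raw counts. Ucn3 stood for maturity, Aldh1a3, Gast and Slc5a10 for dedifferentiation, and Ldha, Hk1 and Slc16a1 for genes that mature β cells keep low. Ins2, the main insulin gene of the mouse, was used as the measure of islet content. The study asked how obesity and cholecystokinin (CCK) signaling change the pancreas, and bulk RNA-seq was made from the pancreas of 16 male C57BL6/J mice at 12 weeks of age. Of these, 5 were lean wild-type (WT) mice and 7 were obese Lep(ob/ob) mice, which carry 2 copies of a leptin allele that makes no working hormone. The remaining 4 were Lep(ob/ob) mice that had received a CCK receptor antagonist in the drinking water for 6 weeks from 6 weeks of age (CCKRi), which was proglumide (0.1 mg/ml) for 2 mice and lorglumide (0.05 mg/ml) for the other 2. All mice were on standard chow, 1 library was made per mouse, and the labels give each library a batch. In batch A were the libraries of 3 WT and 4 Lep(ob/ob) mice. The other 2 WT mice, the other 3 Lep(ob/ob) mice and all 4 CCKRi mice were in batch B, so that the antagonists could be compared with untreated Lep(ob/ob) mice without a change of batch only in batch B.

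β cells become mature after birth, when they come to release insulin only at raised glucose. Mature β cells make urocortin 3 (Ucn3), a peptide released together with insulin that acts on neighboring delta cells. They keep a small set of widely expressed genes very low, among them lactate dehydrogenase A (Ldha), the low-Km hexokinase 1 (Hk1) and the monocarboxylate transporter MCT1 (Slc16a1), so that lactate and pyruvate from the blood do not trigger insulin release. Under lasting metabolic stress β cells can lose part of this identity, and the retinaldehyde dehydrogenase Aldh1a3 and the hormone gastrin (Gast), otherwise a product of the stomach and of the fetal islet, are known marks of that state. Slc5a10 encodes SGLT5, a sodium-coupled sugar carrier known mainly from the kidney.

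Reads counted on genes ran from about 19191200 to 34452600 for the mice of batch A and from about 9870670 to 15884900 for those of batch B. Values are given as the authors' normalized counts, in which each mouse's counts are divided by its own size factor. All 8 acinar cell markers were present, with summed levels of 1082610 to 9140920 normalized counts, as a pancreas should give. The median of this sum differed by group, at 8264440 in WT, 5707120 in Lep(ob/ob) and 1852090 in CCKRi mice, the last all of batch B. In 4 mice the adipocyte markers stood high. The adipocyte score, the mean log2 CPM (counts scaled to the same library total) of 8 adipocyte genes, was 7.44 in Lep(ob/ob) mouse 463, 6.80 in CCKRi mouse 69, 5.86 in Lep(ob/ob) mouse 417 and 5.82 in Lep(ob/ob) mouse 461. In the other 12 mice it was 3.09 to 5.07. The Lep transcript, which the mutant allele still makes, was at 17.5 to 64.7 normalized counts in WT and at 254 to 8655 in Lep(ob/ob) mice and therefore does not check the genotype labels. The WT mice weighed 27.7 ± 3.22 g (SD, n = 5). The Lep(ob/ob) mice weighed 51.0 ± 1.98 g (SD, n = 7), and with an antagonist the weight was 54.8 ± 2.22 g (SD, n = 4).

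Ins2 differed widely among the obese mice. It was at 11611, 12111 and 12665 normalized counts in the WT mice of batch A and at 11522 and 8549 in those of batch B. In Lep(ob/ob) mice it was at 22738 at the lowest, 82910 at the median and 117761 at the highest, and every Lep(ob/ob) mouse was above every WT mouse. The 4 Lep(ob/ob) mice of batch A, at 82910 to 117761, were all above the 3 of batch B, at 22738 to 50651. In CCKRi mice Ins2 was at 9087 in mouse 69, 41636 in mouse 72, 53806 in mouse 74 and 114507 in mouse 76, so that mouse 69 lay within the WT range. Ins2 rose by a log2 fold change of 2.49 ± 0.47 (SE) in Lep(ob/ob) against WT, with an edgeR adjusted p of 0.00327. In bulk pancreas, more β cells and more RNA per β cell cannot be told apart.

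Sequence in front of the genes is shown because 3 of the genes, Ldha, Hk1 and Slc16a1, moved together across the mice, and Ucn3 and Gast, hormone genes of the islet and stomach, stand beside them. RefSeq promoter windows (GRCm38.p6) were found for 6 of the 7 genes, 9 windows in all, and Aldh1a3 had none. Each window below is the 250 bases before a RefSeq start site, 5′ to 3′ on the strand of the gene. Capitals mark the E box (CACGTG) and the cAMP response element (TGACGTCA). The AP-1 motif (TGANTCA), which Jun binds, was searched as well, all 3 on both strands, and no matches overlapped in these windows.

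Ucn3 promoter, chr13:3945350-3945599, minus strand: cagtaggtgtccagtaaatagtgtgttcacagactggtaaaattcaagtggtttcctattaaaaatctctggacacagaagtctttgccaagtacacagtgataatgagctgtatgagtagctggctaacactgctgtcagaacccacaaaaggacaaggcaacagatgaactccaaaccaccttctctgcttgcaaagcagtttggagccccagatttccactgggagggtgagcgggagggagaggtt

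Gast promoter, chr11:100334157-100334406, plus strand: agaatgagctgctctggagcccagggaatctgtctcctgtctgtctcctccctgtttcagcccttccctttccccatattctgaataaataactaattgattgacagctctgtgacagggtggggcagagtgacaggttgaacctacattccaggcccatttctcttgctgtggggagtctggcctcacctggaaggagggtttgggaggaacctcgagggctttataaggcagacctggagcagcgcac

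Ldha promoter, chr7:46845554-46845803, plus strand: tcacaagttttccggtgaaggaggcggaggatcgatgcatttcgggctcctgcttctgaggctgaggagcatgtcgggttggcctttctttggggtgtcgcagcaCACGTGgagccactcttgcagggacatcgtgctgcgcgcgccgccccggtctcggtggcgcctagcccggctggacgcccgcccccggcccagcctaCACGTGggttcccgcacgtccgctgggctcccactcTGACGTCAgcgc

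Slc16a1 promoter, chr3:104638414-104638663, plus strand: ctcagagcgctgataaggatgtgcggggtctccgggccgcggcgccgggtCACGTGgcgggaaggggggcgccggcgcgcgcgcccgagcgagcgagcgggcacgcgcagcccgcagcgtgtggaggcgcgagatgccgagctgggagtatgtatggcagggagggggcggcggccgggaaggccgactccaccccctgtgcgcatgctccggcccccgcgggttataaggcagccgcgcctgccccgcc

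The Ldha window held 2 E boxes and 1 cAMP response element, and the Slc16a1 window held 1 E box. An E box was in 6.02% of all 32851 RefSeq promoter windows of this length, the AP-1 motif in 6.75% and the cAMP response element in 1.55%. None of these letters occurred in the windows of Ucn3, Gast, Hk1 or Slc5a10 or in the other window of Ldha, and no window of the 6 genes held the AP-1 motif. A match is only a run of letters, and binding was not measured here.

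Aldh1a3 (chr7:66390890-66427517, minus strand, GRCm38, 15 exons after merging the transcripts of GENCODE vM21) was the member with the clearest difference between lean and obese mice. In WT mice it was at 5.38, 16.5 and 6.00 normalized counts in batch A and at 14.6 and 8.65 in batch B. In Lep(ob/ob) mice the lowest value was 139.7, the median 322 and the highest 406. No Lep(ob/ob) mouse came near the WT range, and the 4 mice of batch A, at 322 to 406, were again above the 3 of batch B, at 139.7 to 187. Groups that did not overlap in this direction were found for 2.92% of all genes tested, and in the other direction for 1.12%. In CCKRi mice Aldh1a3 was at 92.1 in mouse 69, 170.4 in mouse 72, 313 in mouse 74 and 592 in mouse 76, also all above WT, as for 6.27% of all genes. Since Aldh1a3 was among the genes tested through the obese mice, these shares carry no weight as support.

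The log2 fold change of Aldh1a3 in Lep(ob/ob) against WT was 4.72 ± 0.49 (SE), with an edgeR adjusted p of 4.7e-05 over 13660 genes. With only 4 to 14 reads per WT mouse, Aldh1a3 passed the filter of edgeR on low counts through the obese mice. Without that filter it was at 4.73, with an edgeR adjusted p of 8.07e-06 over 18917 genes. It was higher in 7 of 7 Lep(ob/ob) mice than in any WT mouse. Aldh1a3 was 1 of 5 members tested that passed the adjusted p of 0.05, where 9.07% of all genes tested did so, 5.93% with a rise and 3.14% with a fall. As it came into the main test through the obese mice, this count carries no weight as support. The fold change was 5.35 in batch A alone, with an edgeR adjusted p of 6.51e-06, and 3.74 in batch B alone, where the adjusted p was 0.131 with 3 against 2 mice. The fold change differed between batches by 1.57 ± 0.54 (SE, log2, smaller in batch B), which did not pass the test of the interaction over 13189 genes (edgeR adjusted p = 0.373). By edgeR that test called 0 genes, with an unadjusted p of 0.0125 for Aldh1a3, and by DESeq2 54 genes, none of them a member.

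**Figure D1:**
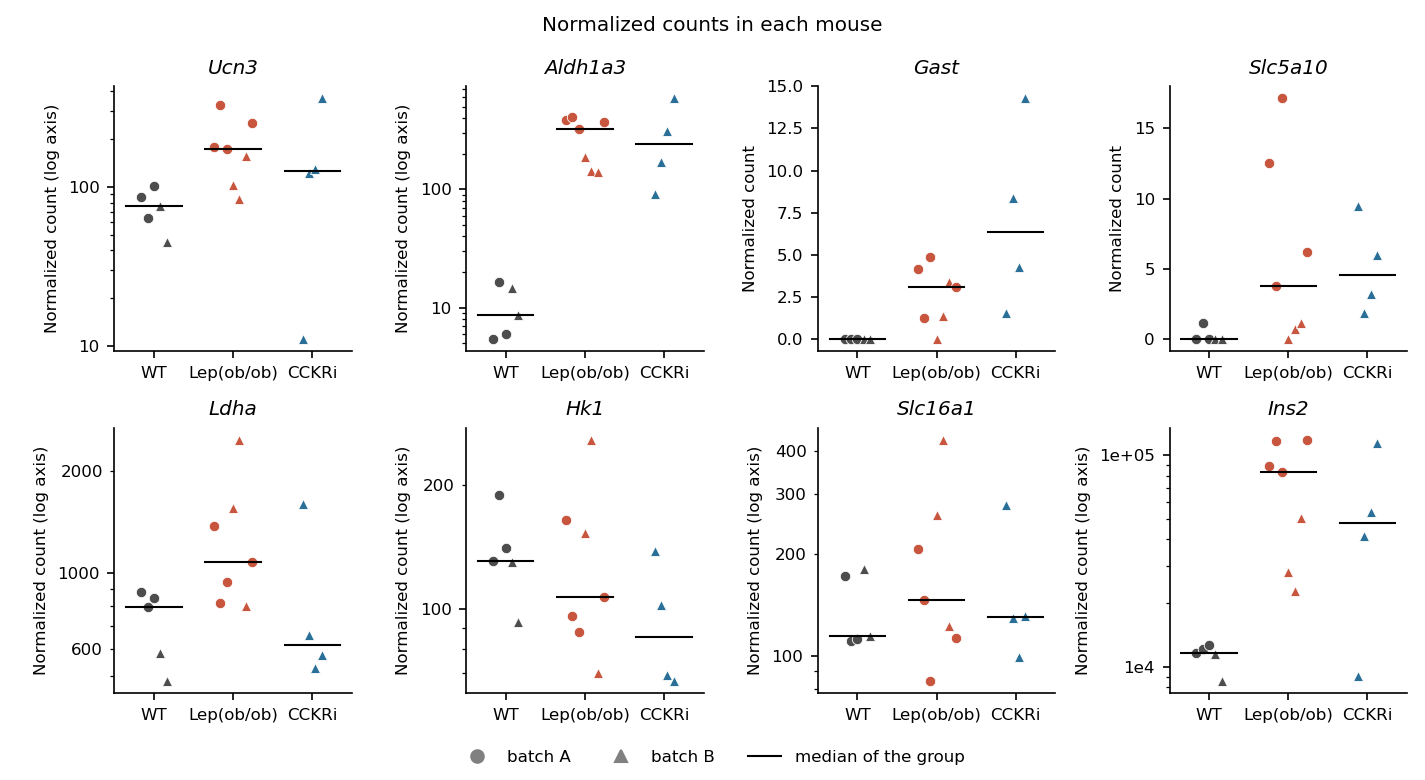
Normalized counts of the 7 genes and of Ins2 (vertical axes, log axes except for Gast and Slc5a10) in WT, Lep(ob/ob) and CCKRi mice, with 1 point per mouse, circles for batch A, triangles for batch B and a line at the median of the group. Aldh1a3 was at 139.7 or more in every Lep(ob/ob) mouse and at 16.5 or less in every WT mouse, while Hk1 and Slc16a1 overlapped.

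Ucn3 (chr13:3940688-3945349, minus strand, 2 exons) was at a higher median in obese than in lean mice, but did not pass the test in the model of all mice. In WT mice it was at 86.1, 63.5 and 100.9 normalized counts in batch A and at 76.2 and 45.4 in batch B. In Lep(ob/ob) mice it was at 84.0 at the lowest, 174 at the median and 331 at the highest. All Lep(ob/ob) mice were above all WT mice of their own batch, as for 10.7% of all genes in batch A and 17.2% in batch B, and across batches only mouse 463, the lowest, lay within the WT range. The log2 fold change was 1.25 ± 0.50 (SE), with an edgeR adjusted p of 0.135 in the model of all 16 mice. This call depended on the mice in the model. Without the CCKRi mice the fold change was 1.24 and the adjusted p was 0.00699, and in batch A alone they were 1.51 and 0.00515. Without the 4 mice with the highest adipocyte scores they were 1.54 and 0.0021, and with DESeq2 in place of edgeR the adjusted p was 0.0662.

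Read against Ins2, Ucn3 was lower in every obese mouse than in any WT mouse, on a scale where most genes were lower because Ins2 rose. In the model of all genes relative to Ins2, 93.2% were lower in Lep(ob/ob) than in WT mice, with a median log2 fold change of -2.49 against -1.27 for Ucn3. Reads per Ins2 read were below WT without overlap for 65.8% of all genes in Lep(ob/ob) and for 14.8% in CCKRi mice. The fall is thus one against Ins2 and is not particular to Ucn3. Ucn3 reads made up 0.742%, 0.525% and 0.797% of Ins2 reads in the WT mice of batch A and 0.662% and 0.531% in those of batch B. In Lep(ob/ob) mice the share was 0.2002% at the lowest, 0.284% at the median and 0.370% at the highest, below every WT mouse. In CCKRi mice it was 0.121% in mouse 69, 0.293% in mouse 72, 0.240% in mouse 74 and 0.317% in mouse 76. The mean of log2(Ucn3 + 1) minus log2(Ins2 + 1) was lower by 1.26 in Lep(ob/ob) than in WT mice (2-sided exact permutation test, p = 0.00126, the smallest that 7 against 5 mice allow, unadjusted). With Ins1, the second insulin gene, in place of Ins2 the difference was -1.01, with the mean of 10 islet genes it was -1.39, and in batch A alone it was -1.60, all at the smallest p of their design. In batch B alone it was -0.78, at an exact permutation p of 0.1, which is the smallest that 3 against 2 mice allow.

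Aldh1a3 moved the other way against Ins2. Its reads were 0.0464% to 0.136% of Ins2 reads in lean mice. In Lep(ob/ob) mice they were 0.276% to 0.667%, and with an antagonist 0.409% to 1.01%. The groups of obese mice did not overlap with WT, as for 0.11% of all genes with Lep(ob/ob) higher and 0.264% with CCKRi higher on this scale. Aldh1a3 is among the genes tested through its level in the obese mice, so that these shares carry no weight as support. The log2 ratio to Ins2 was higher by 2.18 in Lep(ob/ob) than in WT mice (2-sided exact permutation test, p = 0.00126, unadjusted). It was higher by 2.28 in batch A (exact p = 0.0286, the smallest possible) and by 1.99 in batch B (exact p = 0.2, where the smallest possible is 0.1).

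**Figure D2:**
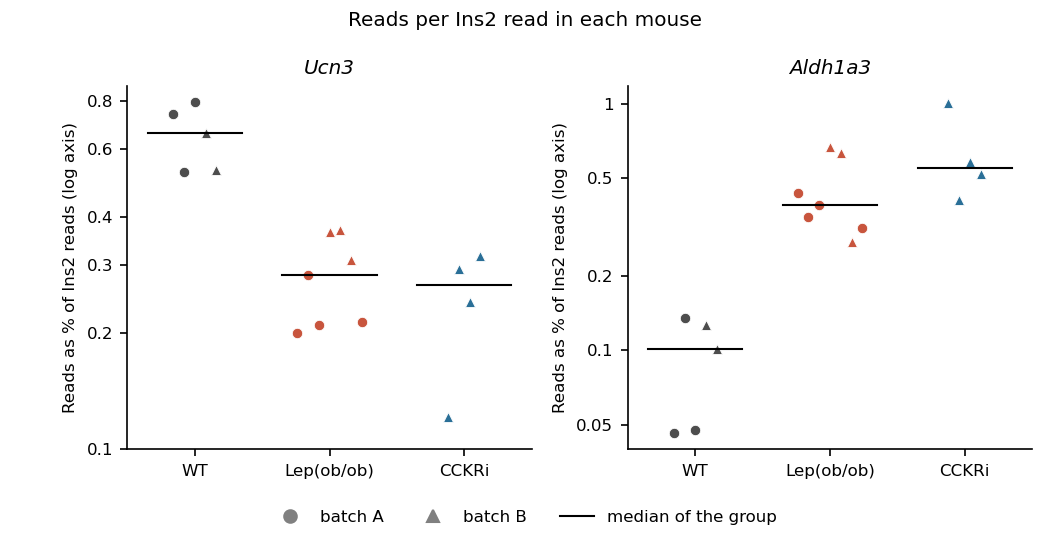
Reads of Ucn3 (left) and Aldh1a3 (right) as a percent of the Ins2 reads of the same mouse (log axes), by group, with 1 point per mouse, circles for batch A, triangles for batch B and a line at the median. The median of Ucn3 was 0.662% in WT and 0.284% in Lep(ob/ob) mice, and that of Aldh1a3 was 0.101% and 0.389%.

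The ratio was also tested over all genes, with each mouse's Ins2 count in place of its library size. In this model 93.4% of 13659 genes passed the adjusted p of 0.05 in Lep(ob/ob) against WT, 93.2% as lower, and the median log2 fold change of all genes was -2.49, since Ins2 itself rose. Only 0.212% of genes were higher, and Aldh1a3 was one of these 29 genes, at 2.24 ± 0.56 (SE, log2) with an edgeR adjusted p of 0.000573. It entered this model too through the obese mice, so that its place among the 29 carries no weight as support. Ucn3 was lower by 1.27 ± 0.49 on this scale (edgeR adjusted p = 0.0149), between the median of the islet genes other than Ins2, at -0.02, and that of all genes. With Ins1 in place of Ins2 the Ucn3 value was -1.02 and its adjusted p was 0.0741. Ldha, Hk1 and Slc16a1 were lower as well, by 1.67 to 2.51, as were 93.2% of all genes, so that nothing is read from these calls.

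**Figure D3:**
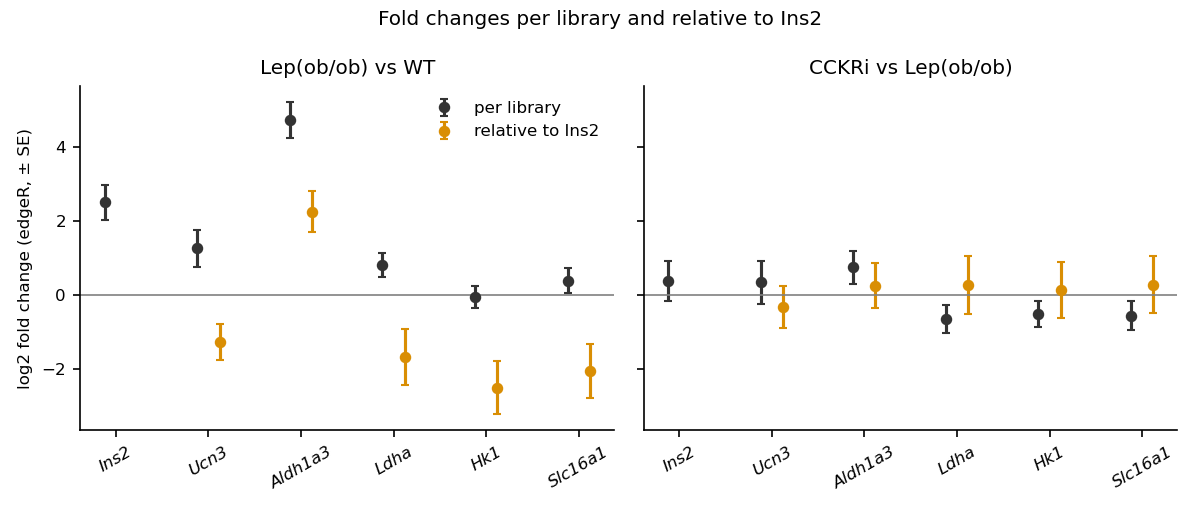
Log2 fold change with its standard error (vertical axis, edgeR) of Ins2 and of the 5 members tested, per library (dark) and relative to Ins2 (orange), for Lep(ob/ob) against WT (left) and CCKRi against Lep(ob/ob) (right). Aldh1a3 is above 0 on both scales on the left, at 4.72 and 2.24, and Ucn3 changes sign, from 1.25 to -1.27.

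Aldh1a3 and Ucn3 were also set against each other, a comparison chosen after the values were seen and given without a test. Aldh1a3 reads per Ucn3 read were 0.0594 to 0.259 in WT mice, with a median of 0.190. They were 0.892 to 2.16 in Lep(ob/ob) mice, with a median of 1.71, and 1.40 to 8.36 in CCKRi mice, with a median of 2.02. In the Lep(ob/ob) mice the ratio had a median of 1.66 in batch A and 1.71 in batch B, although both genes were lower in batch B. In the WT mice it had a median of 0.0625 in batch A and 0.191 in batch B. CCKRi mouse 69 had the highest ratio, with 14 reads of Ucn3 and 117 of Aldh1a3.

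**Figure D4:**
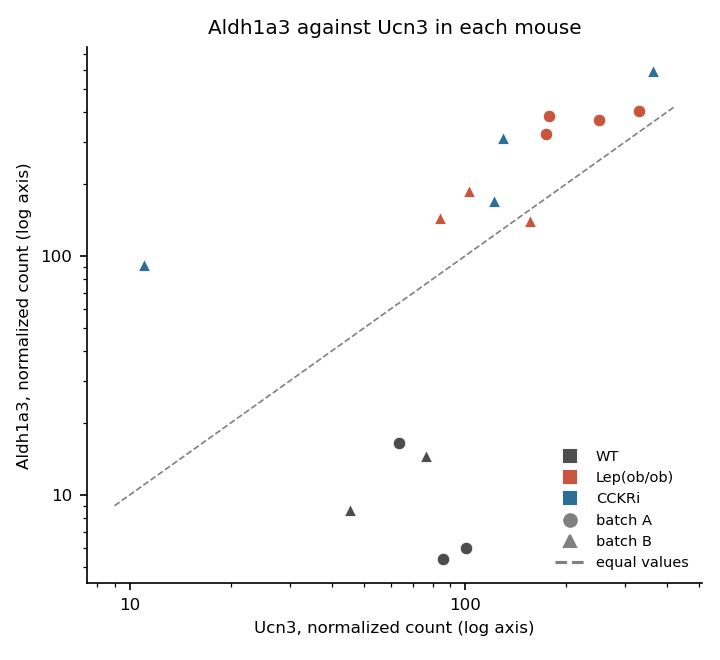
Aldh1a3 (vertical axis) against Ucn3 (horizontal axis), both as normalized counts on log axes, with 1 point per mouse, colored by group, circles for batch A, triangles for batch B and a dashed line at equal values. All WT mice lie far below the line, and among the 11 obese mice only Lep(ob/ob) mouse 464, at 0.892 reads per Ucn3 read, lies below it.

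Gast (chr11:100334407-100336996, plus strand, 3 exons) was counted only in obese mice, with few reads. The 5 WT mice had 0 Gast reads, which allows up to 0.726 normalized counts per mouse as the level of 3 reads over the group. The Lep(ob/ob) mice had 1, 4, 6 and 6 reads in batch A and 0, 2 and 3 in batch B. The CCKRi mice had 2 reads in mouse 69, 9 in mouse 72, 4 in mouse 74 and 12 in mouse 76. Reads were therefore present in 6 of 7 Lep(ob/ob) mice and in 4 of 4 CCKRi mice. Over the group, Gast was at 2.83 normalized counts in Lep(ob/ob) (95% exact Poisson interval 1.77 to 4.28, 22 reads) and 6.57 in CCKRi mice (4.33 to 9.55, 27 reads). Against the WT mice of the same batch at the level of 3 reads, Gast was at least 3.10-fold higher in the Lep(ob/ob) mice of batch A and at least 3.37-fold higher in CCKRi mice. The Lep(ob/ob) mice of batch B were under that level and give no bound. Intervals and bounds cover counting error only. With so few reads Gast was removed by the low-count filter of edgeR and was not tested in the main model. In the model without that filter its edgeR adjusted p was 0.0429 for Lep(ob/ob) against WT and 0.0102 for CCKRi against WT. Of 8 markers of stomach and duodenal lining, where gastrin is normally made, 6 had no read in any WT mouse, 5 in any Lep(ob/ob) mouse and 6 in any CCKRi mouse. Gkn1, Gkn2 and Gip were at 0 in all groups, while Muc5ac, a mucin of the stomach surface, and Sct, secretin, had reads in Lep(ob/ob) mice only and Tff1, a trefoil peptide of the stomach, in WT mice only. The summed level of the 2 markers in the normalized table, Vil1 and Fabp2, was 12.98 to 26.0 in WT, 62.9 to 265 with the Lep(ob/ob) genotype alone and 44.1 to 171.6 with an antagonist. Fabp2 had no read in WT and Lep(ob/ob) mice, so that Vil1 made up these sums. The part of such cells in the Gast reads was not tested. Within batch B, Gast was at 1.64 in Lep(ob/ob) (0.534 to 3.84, 5 reads), against 6.57 in CCKRi mice, and the adjusted p of that comparison was 0.42 without the filter.

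Slc5a10 (chr11:61672781-61720826, minus strand, 16 exons) showed a similar pattern with a larger spread. One WT mouse, 5492, had 1 read and the other 4 had 0. The Lep(ob/ob) mice of batch A had 3, 8, 18 and 21 reads, and those of batch B had 0, 1 and 1. The CCKRi mice had 12 reads in mouse 69, 2 in mouse 72, 3 in mouse 74 and 5 in mouse 76. Mouse 69, with the lowest Ins2 and Ucn3 of the obese mice, thus had the most Slc5a10 reads of its batch. In batch A the level in Lep(ob/ob) mice was 27.4 times that in WT (95% exact binomial interval of the ratio 4.69 to 1103), with 50 reads against 1. In batch B WT had no read. Set against the WT level of 3 reads there, CCKRi mice were 2.75-fold higher, with 12 of their 22 reads in mouse 69. This fold leaves out the counting error of the CCKRi mice and is not a lower limit. The Lep(ob/ob) mice of batch B were under that level. The interval in batch A covers counting error only. Without the filter on low counts its edgeR adjusted p was 0.00745 for Lep(ob/ob) against WT and 0.00117 for CCKRi against WT. In batch B all 4 CCKRi mice, at 1.86 to 9.44 normalized counts, were above the 3 Lep(ob/ob) mice, at 0 to 1.13, as 8.49% of all genes tested were without overlap in either direction there. The adjusted p of CCKRi against Lep(ob/ob) was 0.326 without the filter. Slc5a10 shares 393 exon bases with Fam83g on the opposite strand, which had 27 to 186 reads per mouse. The strand setting of the counting is not given in the sources used here, and the part of Fam83g in the Slc5a10 reads was not tested.

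Per kb of exon, Ldha had the highest level of the 7 genes in WT mice, with a median of 241 normalized counts per kb. Ucn3 followed at 51.6, Slc16a1 at 25.9, Hk1 at 15.3 and Aldh1a3 at 1.87, and the medians of Gast and Slc5a10 were 0. In Lep(ob/ob) mice Ldha was at 327 and Ucn3 at 118 normalized counts per kb, and Aldh1a3 came next at 69.8, before Slc16a1 at 33.0, Hk1 at 12.5, Gast at 6.77 and Slc5a10 at 1.61. Ins2 was far above all of them, at 8850 in WT and 63194 in Lep(ob/ob) mice.

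Ldha (chr7:46841475-46855627, plus strand, 11 merged exons) had the highest level of the 3 members that mature β cells keep low, but other cells of the pancreas express it too. In WT mice it was at 882, 798 and 846 normalized counts in batch A and at 584 and 481 in batch B. In Lep(ob/ob) mice it was at 799.9 at the lowest, 1084 at the median and 2472 at the highest, and the groups overlapped. The 3 highest values were in mice 463, 461 and 417, the Lep(ob/ob) mice with high adipocyte scores. The log2 fold change was 0.80 ± 0.33 (SE), with an edgeR adjusted p of 0.147. Other genes, among them 19 pseudogenes, hold 9.26% of the 50-base stretches of its exons, so that reads on these could have been assigned elsewhere.

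Hk1 (chr10:62268855-62379908, minus strand, 28 merged exons) was at 131, 189 and 140.9 normalized counts in WT mice of batch A and at 129.7 and 93.0 in those of batch B. In Lep(ob/ob) mice it was at 69.8 at the lowest, 107 at the median and 257.05 at the highest. The groups overlapped widely, and the log2 fold change was -0.07 ± 0.30 (SE), with an edgeR adjusted p of 0.922. Mouse 463 was again the highest. Without the 4 mice with high adipocyte scores, Hk1 fell by 0.65 in Lep(ob/ob) against WT (edgeR adjusted p = 0.018), while with Ins2 or the islet genes as covariate it was at 1.01 and 1.12 (adjusted p = 0.0513 and 0.0921). Its direction thus depended on the model.

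Slc16a1 (chr3:104638668-104658462, plus strand, 5 exons) was at 172, 111 and 112 normalized counts in WT mice of batch A and at 180.0 and 115 in those of batch B. In Lep(ob/ob) mice it was at 84.1 at the lowest, 146 at the median and 432 at the highest, with overlap in both directions. The log2 fold change was 0.38 ± 0.33 (SE), with an edgeR adjusted p of 0.522. The mice at the top were 463, 461 and 417, as for Ldha.

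The 3 genes followed the adipocyte score across the 16 mice. After the means of group and batch were removed, the correlation with the adipocyte score was 0.85 for Ldha, 0.88 for Hk1 and 0.69 for Slc16a1. With Ins2 it was -0.84, -0.69 and -0.64. For Ucn3 and Aldh1a3 the signs were opposite, with 0.94 and 0.81 for Ins2 and -0.62 and -0.44 for the adipocyte score. These values describe 16 libraries that share depth and composition, and Ins2 and the adipocyte score were themselves correlated at -0.70. In CCKRi mice Ldha was at 1604 in mouse 69 and at 527 to 659 in the other 3 mice, and Slc16a1 was at 278 in mouse 69 and at 99.2 to 131 in the others. Summed over the 8 adipocyte genes, the WT mice had 2975 to 6844 normalized counts. The Lep(ob/ob) mice had 3644 to 65663 and the CCKRi mice 7316 to 42306, with none of the 8 at 0 in any group. Against WT, 0 of the 8 were called higher in either group and Cfd was called lower. It was at -3.15 in Lep(ob/ob) and -4.23 in CCKRi mice, with edgeR adjusted p values of 0.00806 and 0.0115. Other markers were high in the Lep(ob/ob) mice with high adipocyte scores. The summed level of 8 macrophage genes was 2364 to 3783 in WT, and 14463, 6301 and 4920 in Lep(ob/ob) mice 463, 461 and 417 against 1311 to 3364 in the other Lep(ob/ob) mice. That of 7 fibroblast and stellate cell genes was 7519 to 11684 in WT, 25355, 18578 and 19431 in those 3 mice and 6154 to 9044 in the others. In CCKRi mouse 69 these sums were 5148 and 10423, above the 1773 to 2306 and 4896 to 6352 of the other CCKRi mice, and no gene of either list was at 0 throughout a group. The part of RNA from adipocytes, macrophages or fibroblasts in the levels of Ldha, Hk1 and Slc16a1 was not tested.

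**Figure D5:**
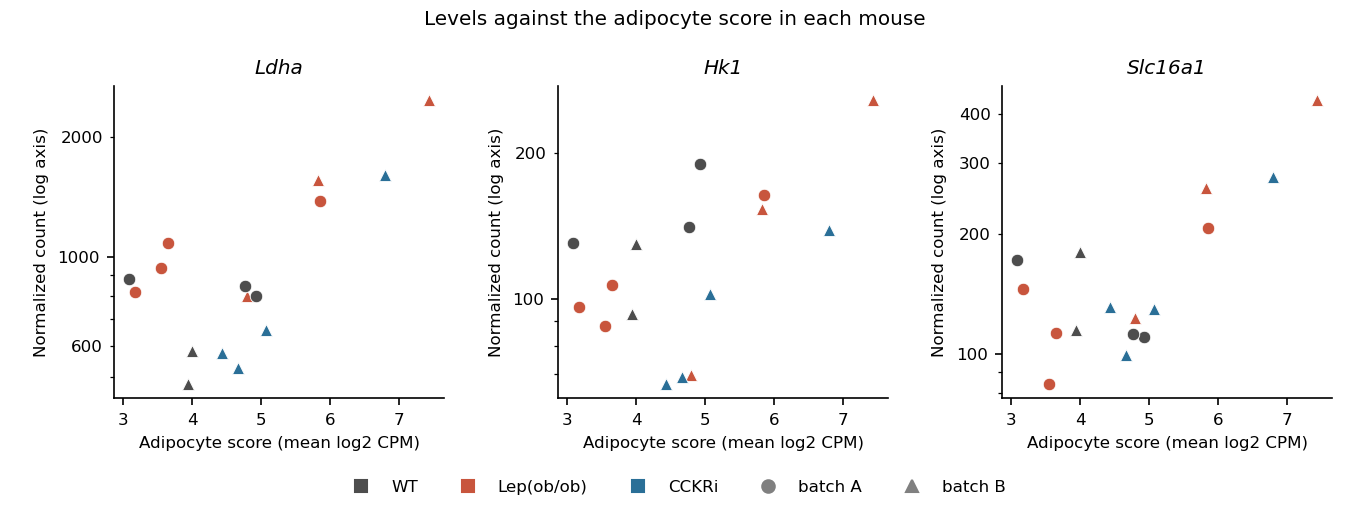
Normalized counts of Ldha, Hk1 and Slc16a1 (vertical axes, log) against the adipocyte score, the mean log2 CPM of 8 adipocyte genes (horizontal axes), with 1 point per mouse, colored by group, circles for batch A and triangles for batch B. The Lep(ob/ob) mouse with the highest score, 7.44, had the highest level of all 3 genes, at 2472, 257.05 and 432.

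CCK receptor antagonism was compared with no treatment in Lep(ob/ob) mice. No member passed the test, where 0.0586% of all genes did, 0.0293% in each direction. By edgeR the unadjusted p of each of the 5 members tested was above 0.05, and DESeq2 called none of the members either. The log2 fold change in CCKRi against Lep(ob/ob) was 0.33 ± 0.58 (SE) for Ucn3, with an edgeR adjusted p of 0.803, and 0.74 ± 0.45 for Aldh1a3, with an adjusted p of 0.447. It was -0.65 ± 0.38 for Ldha, -0.53 ± 0.35 for Hk1 and -0.57 ± 0.38 for Slc16a1, with adjusted p values of 0.432, 0.479 and 0.49. With these standard errors a like level in treated and untreated mice is not shown either. Gast and Slc5a10, tested only without the filter, had unadjusted edgeR p values of 0.0432 and 0.00606. In simulated data for this comparison the test found 91% of genes changed 4-fold and 29% of those changed 2-fold. There 100 genes were changed at each fold, and each gene had the spread typical of its level, not its own. These shares therefore do not give the chance of finding such a change in a member.

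Mouse 69 set much of the spread in this comparison. In batch B without mouse 69, an alternative chosen after its values were seen, the log2 fold changes were 1.25 for Aldh1a3, 0.89 for Ucn3 and 1.09 for Ins2, with edgeR adjusted p values of 0.0994, 0.226 and 0.224. On the same mice they were -1.39 for Ldha, -0.95 for Hk1 and -1.12 for Slc16a1, with adjusted p values of 0.0888, 0.168 and 0.112. Relative to Ins2 in all mice, the log2 fold change was -0.33 for Ucn3 and 0.24 for Aldh1a3, and the adjusted p values of both were 0.922 or more. The exact permutation test of the log2 ratio to Ins2 in batch B, with 4 CCKRi against 3 Lep(ob/ob) mice, gave a difference of -0.58 for Ucn3 (p = 0.143) and 0.28 for Aldh1a3 (p = 0.6), where 0.0286 is the smallest p possible.

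The antagonists were given at different doses and are set side by side without a comparison. The proglumide mice 69 and 72 had 11.02 and 122 normalized counts of Ucn3 and 92.1 and 170.4 of Aldh1a3. The lorglumide mice 74 and 76 had 129.3 and 364 of Ucn3 and 313 and 592 of Aldh1a3. Against WT, the CCKRi mice had a log2 fold change of 5.47 ± 0.57 (SE) for Aldh1a3, with an edgeR adjusted p of 7.65e-05. Aldh1a3 was again 1 of 5 members called, where 5.57% of genes were, 4.22% higher and 1.35% lower. Here too it had passed the filter on low counts through the obese mice, so that this count carries no weight as support. Ucn3 was at 1.58 ± 0.63 with an adjusted p of 0.193. Without mouse 69 Ucn3 was at 2.01, with an adjusted p of 0.00478. These comparisons use the same CCKRi and WT mice as those above and are not independent of them.

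Lists of genes of the same pathways, which hold the members as well, were counted with the same test. Of 19 maturity genes tested, 8 rose and none fell in Lep(ob/ob) against WT, where 5.93% of all genes rose, with a median log2 fold change of 1.25 against -0.02 for all genes. Ucn3 is one of the 19, and this median is its own value. The largest rises were in Rgs16, a regulator of G protein signaling, at 2.75, and in Abcc8, the sulfonylurea receptor of the β cell potassium channel, at 2.36. G6pc2, the islet glucose-6-phosphatase, rose by 2.10 and Pcsk1, a convertase of proinsulin, by 1.85. Mafa, a transcription factor of mature β cells, was at 0.53, and Slc2a2, the glucose transporter GLUT2, at 0.46, with edgeR adjusted p values of 0.442 and 0.437. All 10 islet genes rose in the same comparison, with a median of 2.45. Relative to Ins2, 11 of the 19 maturity genes were lower and none was higher, where 93.2% of all genes were lower, and the median of the list was -1.27 against -2.49 for all genes. This median too is the value of Ucn3.

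Of 17 dedifferentiation and immaturity genes, 10 passed the filter on low counts, 4 rose and none fell, where 5.93% of all genes rose and 3.14% fell. These were Aldh1a3, Cck, Gc, the vitamin D-binding protein, and Pyy, peptide YY, the last 2 at 2.56 and 2.37. Relative to Ins2, 2 of the 10 were higher, Aldh1a3 and Cck, and 6 were lower, where 0.212% of all genes were higher and 93.2% lower, and Gc and Pyy were at 0.04 and -0.16. Gc and Pyy are also made by other islet cells. Of 6 alpha cell markers 3 were tested and Ttr rose, at 1.55, and of 5 delta and PP cell markers 4 were tested and Ppy, pancreatic polypeptide, rose, at 2.59. The summed level of the alpha cell markers was 5157 to 9970 normalized counts in WT and 4061 to 18999 in Lep(ob/ob) mice, and that of the delta and PP cell markers 488 to 594 and 555 to 1279, with none of these markers at 0 throughout a group. Their part in the values of Gc and Pyy was not tested. Cck had 0 reads in every WT mouse and 77 in the Lep(ob/ob) mice, and so passed the filter only through the obese mice, which leaves its calls without weight as support for the list. The same holds for the calls of Aldh1a3, with 4 to 14 reads per WT mouse. In batch A Cck was 13.7-fold higher than the level of 3 reads in WT, which leaves out the counting error of the obese mice. Only 2 of these 77 reads were in batch B, and the CCKRi mice had 51. The 7 that the filter removed were Gast, Slc5a10, Npy, Neurog3, Mycl, Nanog and Pou5f1. Among 19 genes that β cells keep low, Ndrg2 rose, by 0.997, and the other 18 did not pass the test, with a median of 0.00 over the list.

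Among genes related to single members, Aldh1a3 was the one of 8 retinaldehyde pathway genes tested that rose, having entered through the obese mice. Aldh1a1 and Aldh1a2, which make the same product, were at 0.07 and 0.15 with edgeR adjusted p values of 0.886 and 0.878. Neither of the urocortin family genes tested, Ucn3 and Ucn2, passed. In the gastrin and CCK system 5 of 7 genes rose and 1 fell, where 5.93% of all genes rose and 3.14% fell. Relative to Ins2, 1 was higher and 3 were lower, where 0.212% of all genes were higher and 93.2% lower. The median of the list on that scale was -0.89 against -2.49 for all genes. Cck is counted among the 5 and is the one higher relative to Ins2, and as said above its calls carry no weight. The rises took in Pam, the amidating enzyme of peptide hormones, at 1.52, and Pcsk2, a second prohormone convertase, at 2.41. Of the tyrosine sulfotransferases in the list, Tpst2 was the gene that fell, at -0.38, while Tpst1 rose, at 0.60. The sulfated-peptide receptor Cckar was at -0.55 with an adjusted p of 0.182. Of 5 SLC5 transporters tested, Slc5a7, the choline transporter, rose by 5.25, and Slc5a8, a transporter of monocarboxylates, fell by 1.08. Of 20 glycolysis genes 1 rose, Hk2, the hexokinase of muscle and fat, at 1.24, and of 14 lactate genes Pdk4 rose by 1.82 and Emb, a partner protein of monocarboxylate transporters, by 1.55. For these lists too, 5.93% of all genes rose and 3.14% fell, and 1 of 20 glycolysis genes is near that share. In CCKRi against Lep(ob/ob) no gene of any of these lists passed.

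The genes most like each member across the 16 mice were taken by Pearson correlation of log2 CPM after removal of group and batch means, as a description. For Ucn3 they were Nell1 at 0.97, Pcsk1 at 0.95 and Enho at 0.95. For Aldh1a3 they were Slc6a17, B3galt5 and Emb, at 0.92, 0.91 and 0.91. Ldha was closest to Hsd17b4, Aldoa, an aldolase of glycolysis, and G6pdx, the entry enzyme of the pentose phosphate pathway, all at 0.98. The genes closest to Hk1 were Slc38a1, Syt12 and Tap2, all at 0.97, and those closest to Slc16a1 were Tapbp, Sema3c and Sulf1, at 0.97, 0.96 and 0.95.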

How the data were processed

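Raw counts per gene symbol and a normalized table of 17548 genes were used for 16 mice. The authors trimmed reads (Trim Galore 0.6.7, cutadapt 3.5), used STAR 2.7.9 for alignment to mm10, per the labels, and deposited whole-number counts. The deposited normalized signal equals the counts over a size factor that is constant within a mouse (0.617 to 1.44). The read counter and its strand setting are not given in the sources used here. Reads come from polyA RNA with a stranded kit.

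Counts were tested with edgeR 4.0.16 (R 4.3.3, TMM, filterByExpr, quasi-likelihood test) in 1 model of the 3 groups and batch, with Benjamini-Hochberg adjustment over 13660 genes and an adjusted p threshold of 0.05. For values relative to Ins2, each mouse's Ins2 count replaced its library size. Single ratios were compared by 2-sided exact permutation tests (Python 3.11.15, pseudocount 1). DESeq2 1.42.0 was an alternative. For Gast and Slc5a10 the ratio to Ins2 is set by the pseudocount where a mouse has 0 reads, so none is given. The models were tested on simulated data. In these, edgeR found 57% of genes changed 2-fold and 93% of those changed 4-fold in Lep(ob/ob) against WT.

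The members and gene lists were chosen with earlier results of these data known. Named genes are the members, Ins2 and Ins1, up to 4 called genes with the largest change per list, and the 3 most like genes of each member. Mafa, Slc2a2, Aldh1a1, Aldh1a2, Ucn2, Cckar, Tpst1 and Tpst2, and single marker genes of other cells, are named beyond this rule, after their values were seen. Each mouse is 1 replicate, and littermates or cages are not given. The lists were of maturity, dedifferentiation, genes kept low, islet content, urocortins, retinaldehyde enzymes, gastrin and CCK, SLC5 transporters, glycolysis and lactate, with marker lists of acinar cells, adipocytes, alpha cells, delta and PP cells and stomach and duodenal lining. Lists of macrophages and of fibroblasts and stellate cells are given beside Ldha, Hk1 and Slc16a1, and those of duct, lymphocyte, endothelial and erythroid cells were summed but are not reported here. Positions and exon lengths come from GENCODE vM21 (GRCm38, the build of mm10).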

Additional observations from a re-analysis of the deposited data

Results flagged for a closer look

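Among the groups of 4 to 10 mice, 2 of 23 sets of values of the members and Ins2 held a mouse that stood apart from the others of its group, where chance gives about 1 in 20. Ins2 in WT mouse 59 of batch B was at 8549 normalized counts, below the 11522 to 12665 of the other WT mice, and Ucn3, Ldha and Hk1 were also at their lowest WT values in that mouse. Slc5a10 in WT mouse 5492 was at 1.18 normalized counts, which is 1 read, while the other 4 WT mice had 0. With 4 values at 0 any single read stands apart, so that this one says nothing beyond the 1 read and is not to be set against chance.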

How the results depend on the processing

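No paired analysis was possible because the groups share no replicate numbers. Aldh1a3 was called in Lep(ob/ob) against WT in 13 of 14 alternatives and in every fit without 1 mouse, where its log2 fold change was 4.46 to 5.01. The setting with at least 10 counts in every mouse leaves Aldh1a3 out and is not among the 14. Aldh1a3 entered the filtered fits through the obese mice, so that these calls carry no weight as support. Beside each count stands the share of all genes called in the same fit. The number of members called, 1 (9.07%), was 3 (6.66%) without the filter on low counts, 0 (6.97%) with at least 10 counts in every mouse (which leaves Aldh1a3 out), 2 with only the groups compared (9.20%) or batch A alone (8.68%), 0 (0.0570%) in batch B alone, 4 with Ins2 (26.0%) or the islet genes (18.6%) as covariate, 2 (13.4%) with the adipocyte genes as covariate and 3 (12.3%) without the 4 mice with high adipocyte scores. In CCKRi against WT it was 3 (4.09%), 0 (3.91%) and 0 (0.0926%) for no filter, 10 counts and batch B, 3 with the Ins2 (9.81%), islet (5.51%) or adipocyte (14.0%) covariate, 2 (9.64%) without those 4 mice, 2 (1.65%) with proglumide and 3 (5.34%) with lorglumide mice only, and 1 to 2 without 1 mouse. Relative to Ins2 the 5 members called (93.4%) became 3 (89.6%) with Ins1, 3 (83.8%) without a batch term, 0 of 5 in batch B alone, where no gene was called, and 4 to 5 without 1 mouse, and Ldha was the one lost then (adjusted p up to 0.0892).

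With Ins2 or the islet genes as covariate, Ucn3 turned to -1.61 and -2.15 in Lep(ob/ob) against WT and to -1.94 and -2.45 in CCKRi against WT, and Ins2 to -0.45 and -0.44 with the islet genes, which include it. With the same covariates Ldha was called at 2.16 and 2.35 and Slc16a1 at 1.45 and 1.53 in Lep(ob/ob) against WT, and Ldha at 1.48 and 1.62 in CCKRi against WT. Ldha relative to Ins2 was 0.17 in batch B alone. A covariate that itself differs between the groups shares its difference with them, and beyond that the cause was not tested. CCKRi against Lep(ob/ob) kept 0 members called in all 17 alternatives and in the 11 fits without 1 mouse. The 3 against 2 mice of batch B and the few reads of Gast and Slc5a10 limit what can be said of them.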
